A study of Mus musculus with 12 samples.

Results

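The genes described here are 33 genes of glycolysis and of the hypoxia response. The list holds glucose and lactate transporters, glycolytic enzymes, hypoxia-inducible factor (HIF) subunits and their known targets. It was chosen with earlier results of these data known. The genes were followed by RNA sequencing in mouse stomach organoids given a Wnt inhibitor or vehicle. All 33 genes passed the low-count filter that left 16152 of 55421 gene rows for testing. Wnt inhibition raised 7 of them in organoids of both stomach regions: the glucose transporter Slc2a1, the enzymes Hk1, Pkm and Ldha, the HIF-2 alpha gene Epas1, and the hypoxia targets Ndrg1 and Ankrd37. Of all tested genes 12.9% rose in both regions. Counted in either direction, 24.2% of the 33 passed in each region, below the shares of all tested genes given next. Hif1a fell in antrum. Slc2a1, Hk1, Epas1 and Ndrg1 passed in both regions under every other scaling, filter, model and set of libraries that was tried. Pkm, Ldha and Ankrd37 failed to pass under at least 1 of these in each region, and so did Hif1a in antrum. Hk1, Epas1 and Ndrg1 moved most, each by 1.85-fold to 2.20-fold. Of the 9 other hypoxia targets on the list, 2 passed the test in each region, where 30.9% (corpus) and 29.7% (antrum) of all tested genes passed. Vegfa, Car9, Bnip3 and Adm were not among them.

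Glycolysis splits glucose into pyruvate in the cytosol, and lactate dehydrogenase turns pyruvate into lactate when it is not burned in mitochondria. HIF is a pair of an alpha subunit (HIF-1 alpha or HIF-2 alpha) and a constant beta subunit. At normal oxygen, prolyl hydroxylases mark the alpha subunit for destruction through the von Hippel-Lindau protein. At low oxygen the alpha subunit persists, enters the nucleus and binds short DNA elements with the core ACGTG or GCGTG beside many glycolytic genes. HIF activity is set mainly at the level of protein, which RNA counts do not measure. The stomach lining renews from Wnt-dependent stem cells in its glands, and organoids grown from those glands need added Wnt and R-spondin to keep dividing.

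The organoids were epithelial cultures from wild-type mice, grown in Matrigel and passaged at least 3 times. Corpus organoids came from the body of the stomach and antrum organoids from its outlet end. Each region had 3 organoid lines, numbered 8025, 8026 and 8028, and each line was given both treatments, which makes 4 groups of 3 libraries and 12 in all. Inhibited organoids received XAV939, a small molecule that stabilises Axin and so lowers beta-catenin (1 mM as the labels give it), together with Noggin, a blocker of bone morphogenetic protein signalling (100 ng/mL), in medium without added Wnt and R-spondin. Vehicle organoids received DMSO in the normal medium, which holds 50% conditioned medium with Wnt3a, R-spondin and Noggin. Organoids were treated for 24 h, starting 4 days after the last passage. Since XAV939 came with other medium, their effects cannot be told apart, nor can those of region and serum, which was 20% of the corpus medium and 10% of the antrum medium. The labels do not say whether the corpus and antrum lines with the same number came from 1 mouse, nor that each line was a separate mouse, so the p-values measure the spread between lines.

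Libraries held 18858022 to 31656696 counts. The Wnt targets Axin2 and Lgr5 together fell from 114 to 126 CPM (read counts scaled to a common library size) in the vehicle libraries to 3.91 to 20.5 CPM in the inhibited ones. Epithelial markers (6 of 6 tested) summed to 8696 to 10570.2 CPM in vehicle and 16501 to 18702 CPM in inhibited libraries, without overlap. In contrast, fibroblast markers reached at most 1.47 CPM, smooth muscle markers 0.960 CPM and parietal cell markers 1.56 CPM. Endothelial markers (2 of 4 tested) summed to 2.42 to 17.2 CPM and immune markers (2 of 5 tested) to 9.85 to 51.3 CPM. Adgre1 was at 0 in every library, but in vehicle corpus line 8025 it was the only 1 of the 5 immune markers at 0. Surface pit cell markers (4 of 4) summed to 208 to 331 CPM in vehicle and 1521 to 4037 CPM in inhibited libraries, and chief cell markers (3 of 3) to 95.1 to 372 CPM and 20.0 to 42.9 CPM. The part of these markers and cell types in the changes below was not tested. In bulk RNA, a larger share of cells with a gene and more RNA of it per cell cannot be told apart. Some libraries stood apart: rRNA-like genes took 17.2% and 6.87% of the counts in the antral vehicle libraries of lines 8025 and 8028, against 0.839% to 3.45% elsewhere. The inhibited corpus library of line 8028 lay at -20.3 on the second principal component (19.3% of the variance), among the antral libraries (-23.9 to -2.9) and away from the other inhibited corpus libraries (17.9 and 27.8).

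On Wnt inhibition, 8 of the 33 genes rose in corpus and 0 fell (edgeR adjusted p below 0.05). Of all tested genes 30.9% passed there, 15.5% upward and 15.4% downward. In antrum 7 rose and 1 fell, where 29.7% of all tested genes passed, 16.3% upward and 13.4% downward. The 7 that rose in antrum had all risen in corpus, where Pfkp was the eighth, and 12.9% of all tested genes rose in both regions. The 33 genes thus rose at shares of 24.2% and 21.2%. The median log2 change of the 33 genes was 0.285 in corpus and 0.301 in antrum, against -0.037 and -0.044 over all tested genes. These medians rested in part on single libraries: the antral one was 0.145 without vehicle line 8026, and 0.633 without the vehicle libraries of lines 8025 and 8028, which carried the most rRNA-like counts. The corpus one was 0.515 without inhibited line 8028 and 0.178 without the pair of line 8025. In corpus 30 of the 33 had a positive change and in antrum 29, against 46.0% and 45.4% of all tested genes. Scaling by total counts moved the median of all genes by -0.156 in corpus and -0.075 in antrum. With it 28 and 26 changes were positive, and in corpus 5 genes rose (8.28% of all tested genes) and 1, Hif1a, fell (23.1%). With the organoid line as a block, which the design pairs within a region, 13 genes rose in corpus (19.8% of all tested genes) and 13 rose and 1 fell in antrum (20.6% and 20.2%).

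**Figure D1:**
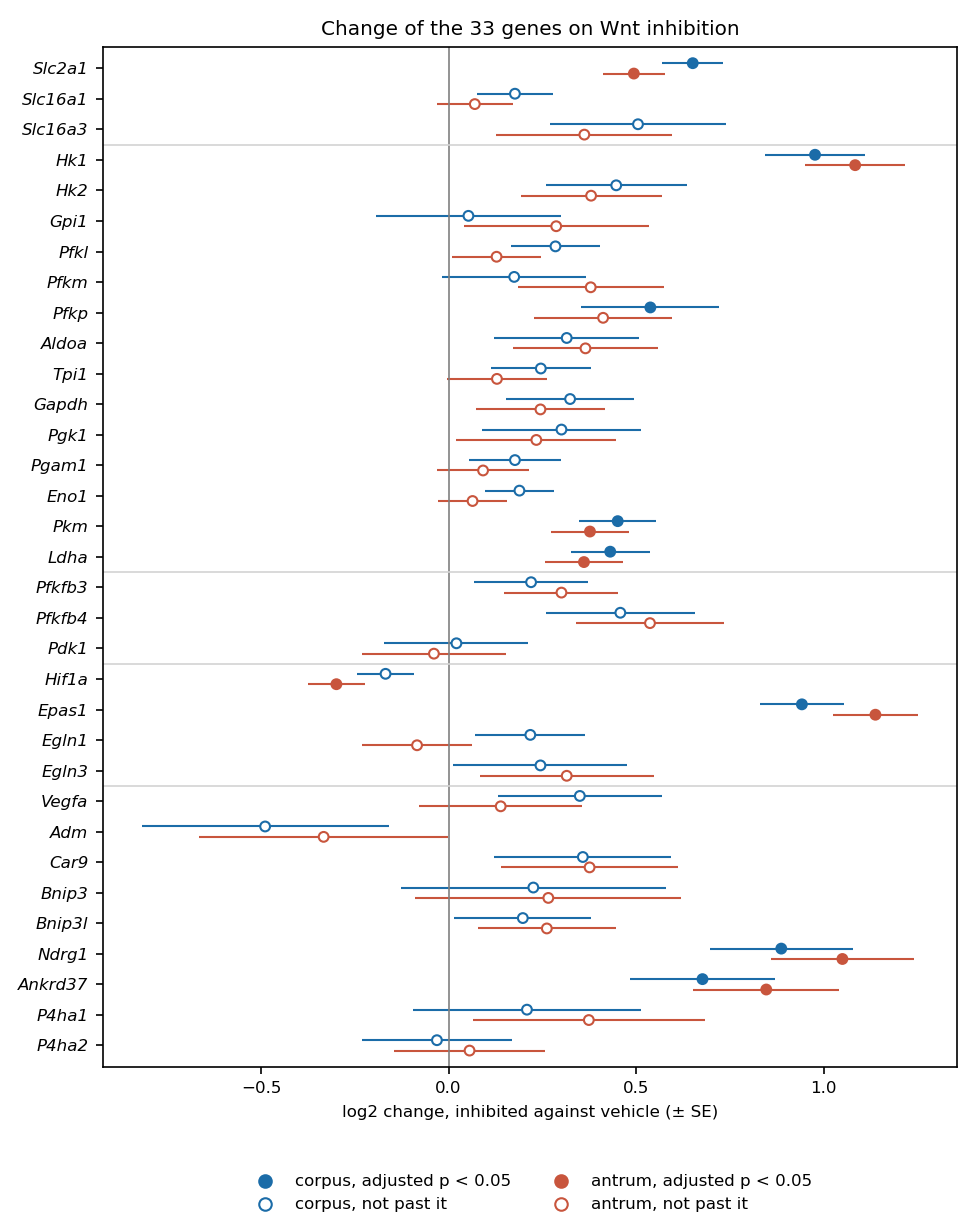
Log2 change of each of the 33 genes on Wnt inhibition (x axis; bars, SE) in corpus (blue) and antrum (red), ordered by role, with filled points where the edgeR adjusted p was below 0.05. Most points lie right of 0 in both regions, Hk1, Epas1 and Ndrg1 lie farthest right, and Hif1a and Adm lie left of 0.

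Promoter sequences were at hand for 30 of the 33 genes (RefSeq, GRCm38.p6), as windows from 250 bases before to 50 bases after an annotated start, but not for Epas1, Bnip3l and Ndrg1. The HIF core was searched as ACGTG or GCGTG on both strands; a palindromic CACGTG, which is also the E-box bound by Myc, counts once on each strand. At least 1 core lay in a window of 28 of the 30 genes (93.3%), against 46.7% of all genes in the table. ACGTG alone was present in 22 (73.3%), against 21.8%. Among genes with a window, either core was in 7 of the 7 that passed the test in a region, which include Hif1a, and in 21 of the 23 that did not (91.3%). ACGTG alone was in 6 (85.7%) and 16 (69.6%). Epas1 and Ndrg1 also passed but had no window. Counted by window, 35 of 43 (81.4%) held either core, against 43.8% of all windows. The list holds known HIF targets by choice. For that reason, and with so few genes and so common a motif, these shares are a description only. The stretches below are the 250 bases before the start, 5′ to 3′ on the strand of the gene, with the matches in capitals. Slc2a1, Ldha and Ankrd37 are shown as genes that rose in both regions, and Car9 and Pgk1 as classical HIF targets that passed in neither.
Slc2a1 (chr4:119108495-119108744, + strand): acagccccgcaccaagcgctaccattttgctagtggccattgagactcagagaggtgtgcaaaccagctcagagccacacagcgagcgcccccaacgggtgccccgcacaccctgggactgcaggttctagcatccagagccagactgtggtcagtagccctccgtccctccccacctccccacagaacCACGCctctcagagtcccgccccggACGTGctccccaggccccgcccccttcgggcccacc
Ldha (chr7:46845554-46845803, + strand): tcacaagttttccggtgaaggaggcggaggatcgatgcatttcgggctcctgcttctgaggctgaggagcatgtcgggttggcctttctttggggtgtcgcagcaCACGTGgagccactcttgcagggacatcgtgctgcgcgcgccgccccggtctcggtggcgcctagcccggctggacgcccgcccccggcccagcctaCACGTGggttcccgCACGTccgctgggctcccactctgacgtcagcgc
Ankrd37 (chr8:45999851-46000100, - strand): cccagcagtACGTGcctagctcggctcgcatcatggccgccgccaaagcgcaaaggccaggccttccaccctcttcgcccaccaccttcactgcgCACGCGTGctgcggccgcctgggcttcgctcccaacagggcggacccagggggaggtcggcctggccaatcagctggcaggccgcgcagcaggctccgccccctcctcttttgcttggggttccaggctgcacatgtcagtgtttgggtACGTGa
Car9 (chr4:43506776-43507025, + strand): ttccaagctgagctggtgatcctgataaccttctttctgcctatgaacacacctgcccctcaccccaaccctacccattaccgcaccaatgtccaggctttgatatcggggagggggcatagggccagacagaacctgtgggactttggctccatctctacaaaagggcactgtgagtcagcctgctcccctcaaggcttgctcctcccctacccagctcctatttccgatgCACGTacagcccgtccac
Pgk1 (chrX:106186850-106187099, + strand): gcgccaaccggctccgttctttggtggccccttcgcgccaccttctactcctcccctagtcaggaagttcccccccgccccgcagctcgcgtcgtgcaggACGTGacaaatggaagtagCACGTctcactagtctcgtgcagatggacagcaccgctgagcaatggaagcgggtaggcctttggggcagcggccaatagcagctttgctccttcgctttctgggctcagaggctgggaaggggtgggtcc
The Ldha stretch, 1 of 2 windows of that gene and the one with more matches, held 2 copies of CACGTG and 1 further ACGTG. Those of Slc2a1 and Ankrd37 held 2 and 4 matches, that of Car9 1, at 18 bases before the start, and that of Pgk1 2. A match describes the letters in this window and is neither a site of binding nor a cause of a change.

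Of the 3 transporters, only Slc2a1 (ENSMUSG00000028645; GRCm38 chromosome 4 from 119108711 to 119137983), the basal glucose importer GLUT1, passed the test. Vehicle corpus libraries of lines 8025, 8026 and 8028 held 175, 189.5 and 184 CPM of Slc2a1, and the inhibited ones 299.8, 308 and 254 CPM. Antral vehicle libraries held 214, 188 and 220.4 CPM, and inhibited ones 301, 288 and 288 CPM. Inhibited and vehicle libraries did not overlap in either region. The log2 change was 0.65 ± 0.082 (SE) in corpus and 0.49 ± 0.082 in antrum (edgeR adjusted p 0.000145 and 0.00091), or 1.57-fold and 1.41-fold. Slc16a1, the lactate transporter MCT1, had log2 changes of 0.18 ± 0.101 (corpus) and 0.07 ± 0.101 (antrum), which did not pass. Blocking on the line, its corpus change passed (adjusted p 0.0238) and without the vehicle library of line 8028 (0.0351). Slc16a3, the lactate exporter MCT4 and a HIF target, stood at 0.51 ± 0.234 and 0.36 ± 0.235 (adjusted p 0.126 and 0.272), and passed in corpus without the inhibited library of line 8028 (0.0185).

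The 14 glycolytic enzymes had positive changes in both regions, with a median log2 change of 0.308 in corpus and 0.324 in antrum. Under total-count scaling 13 of 14 were positive in each region. In corpus the small change of Gpi1 turned negative without vehicle line 8028 or inhibited line 8025 or 8026 (as low as -0.08), and that of Pfkm without inhibited line 8025 (-0.03). Hk1 (ENSMUSG00000037012; chromosome 10 from 62268855 to 62379908), the hexokinase that traps glucose in the cell by phosphorylating it, moved most. Its level was 220.0, 239 and 216 CPM in vehicle corpus libraries of lines 8025, 8026 and 8028 and 486, 492 and 352 CPM in inhibited ones. In antrum it was 191, 157 and 213 CPM with vehicle and 376, 397 and 415 CPM with inhibition. The groups did not overlap, and the smallest rise in corpus was that of line 8028. The log2 change of Hk1 was 0.98 ± 0.133 and 1.08 ± 0.133 (adjusted p 0.000253 and 0.000127), or 1.97-fold and 2.12-fold.

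Pfkp (ENSMUSG00000021196; chromosome 13 from 6579768 to 6648777) is the platelet type of phosphofructokinase, which commits sugar to glycolysis. Vehicle corpus libraries of lines 8025, 8026 and 8028 held 323, 392 and 319 CPM of Pfkp and inhibited ones 575, 579 and 346 CPM. Inhibited line 8028 thus lay within the vehicle range. Antral levels were 299.8, 231 and 326 CPM with vehicle and 394, 364 and 381 CPM with inhibition, which did not overlap. The corpus change of 0.54 ± 0.184 passed narrowly (adjusted p 0.0455), and the antral change of 0.41 ± 0.184 did not (0.115). Pfkp no longer passed in corpus when any of 4 libraries was left out: vehicle 8025 (adjusted p 0.111), vehicle 8028 (0.116), inhibited 8025 (0.136) and inhibited 8026 (0.152). The same held without the pair of line 8025 (0.282) or 8026 (0.148), with total-count (0.103) or upper quartile scaling (0.0596), with limma-voom (0.0591), without a low-count filter (0.108) and in a fit of the 6 corpus libraries (0.109). With the line as a block, the antral change of Pfkp also passed (0.0385). Its exons share 748 bases with Pitrm1 on the other strand, and whether the counting used strand is not given in the sources used here.

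Pkm (ENSMUSG00000032294; chromosome 9 from 59656368 to 59679375) is the pyruvate kinase of most tissues, which makes pyruvate in the last step of glycolysis. Its level in corpus libraries of lines 8025, 8026 and 8028 was 2757, 3042 and 2861 CPM with vehicle and 4332.5, 4225 and 3281 CPM with inhibition. In antrum it was 2697, 2499 and 2949.9 CPM with vehicle and 3589.9, 3426 and 3565 CPM with inhibition. Neither region's groups overlapped. The log2 rise of Pkm was 0.45 ± 0.103 for corpus and 0.38 ± 0.103 for antrum (adjusted p 0.0064 and 0.0172). The antral call was lost without vehicle line 8026 (0.0623), inhibited line 8025 (0.0555), or the rRNA-rich vehicle libraries of lines 8025 and 8028 (0.0541), and neither region's call held without the pair of line 8025 (0.0802 in corpus, 0.12 in antrum) or 8026 (0.0523 and 0.118). Total-count scaling also ended both calls (0.065 and 0.0627).

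Ldha (ENSMUSG00000063229; chromosome 7 from 46841475 to 46855627), the lactate dehydrogenase subunit that favours lactate, also rose in both regions. Its corpus levels in lines 8025, 8026 and 8028 were 1286, 1459.7 and 1328 CPM with vehicle and 1945, 2014 and 1532 CPM with inhibition. Its antral levels were 1277, 1167 and 1421 CPM with vehicle and 1675, 1645 and 1643 CPM with inhibition, again with no overlap in either region. The log2 rise of Ldha was 0.43 ± 0.105 for corpus and 0.36 ± 0.105 for antrum (adjusted p 0.00926 and 0.0233). The antral call of Ldha was lost without any single antral library except vehicle line 8028 (adjusted p 0.0555 to 0.0791), and with total-count (0.074) or upper quartile scaling (0.0583). That call was also lost without the antral pair of line 8025 or 8026. In corpus Ldha no longer passed without the pair of line 8025 (0.1) or 8026 (0.0539), or with total-count scaling (0.0814). Ldha pseudogene copies held 615 counts on average against 40735 for Ldha, and how reads shared by such copies were divided is not given in the sources used here.

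Gapdh and Pgk1, which oxidise and then dephosphorylate the split sugar, were the most abundant of the 33 genes per kilobase of exon in vehicle corpus organoids, at 1092 ± 131 and 802 ± 94.0 CPM per kb (SD, n = 3). Gapdh stood at 4424, 5091 and 4023 CPM in vehicle corpus lines 8025, 8026 and 8028 and at 6484, 6495 and 3967 CPM in inhibited ones. Inhibited line 8028 was below all 3 vehicle libraries, whereas the other inhibited libraries were above them. In antrum Gapdh held 3571, 3073 and 3947 CPM with vehicle and 4280.1, 4037 and 4237 CPM with inhibition, without overlap. The log2 changes of Gapdh, 0.32 ± 0.171 and 0.25 ± 0.171, did not pass (adjusted p 0.175 and 0.304). The corpus change of Gapdh passed with the line as a block (0.0423) and without inhibited line 8028 (0.00172).

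Pgk1 held 1771, 2024 and 1605 CPM in vehicle corpus lines 8025, 8026 and 8028 and 2633, 2483 and 1538 CPM in inhibited ones. In antrum it held 1339, 1057 and 1835 CPM with vehicle and 1695, 1586 and 1695 CPM with inhibition. The groups overlapped in both regions, through inhibited line 8028 in corpus and vehicle line 8028 in antrum. Its log2 changes of 0.30 ± 0.213 and 0.23 ± 0.213 did not pass (adjusted p 0.314 and 0.437), and the corpus change of Pgk1 passed without inhibited line 8028 (0.0321).

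The other 8 enzymes did not pass in either region. Their log2 changes ran from 0.05 for Gpi1 to 0.45 for Hk2 in corpus, and from 0.06 for Eno1 to 0.38 for Hk2 in antrum. With the line as a block, Hk2, the inducible hexokinase, passed in both regions (adjusted p 0.00308 and 0.0052), Pfkl (0.0192) and Tpi1 (0.0306) passed in corpus, and Pfkm (0.0244) and Aldoa (0.0495) passed in antrum. Without inhibited corpus line 8028, 7 of the 8 (Hk2, Pfkl, Pfkm, Aldoa, Tpi1, Pgam1 and Eno1) passed in corpus, and Gpi1 did not. In that fit 42.6% of all tested genes passed, 20.8% upward, against 30.9% with all libraries. Aldoa has 2 rows in the table. Its second row held at most 1.78 CPM in a library against 1379 CPM or more for the first, and did not pass either.

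**Figure D2:**
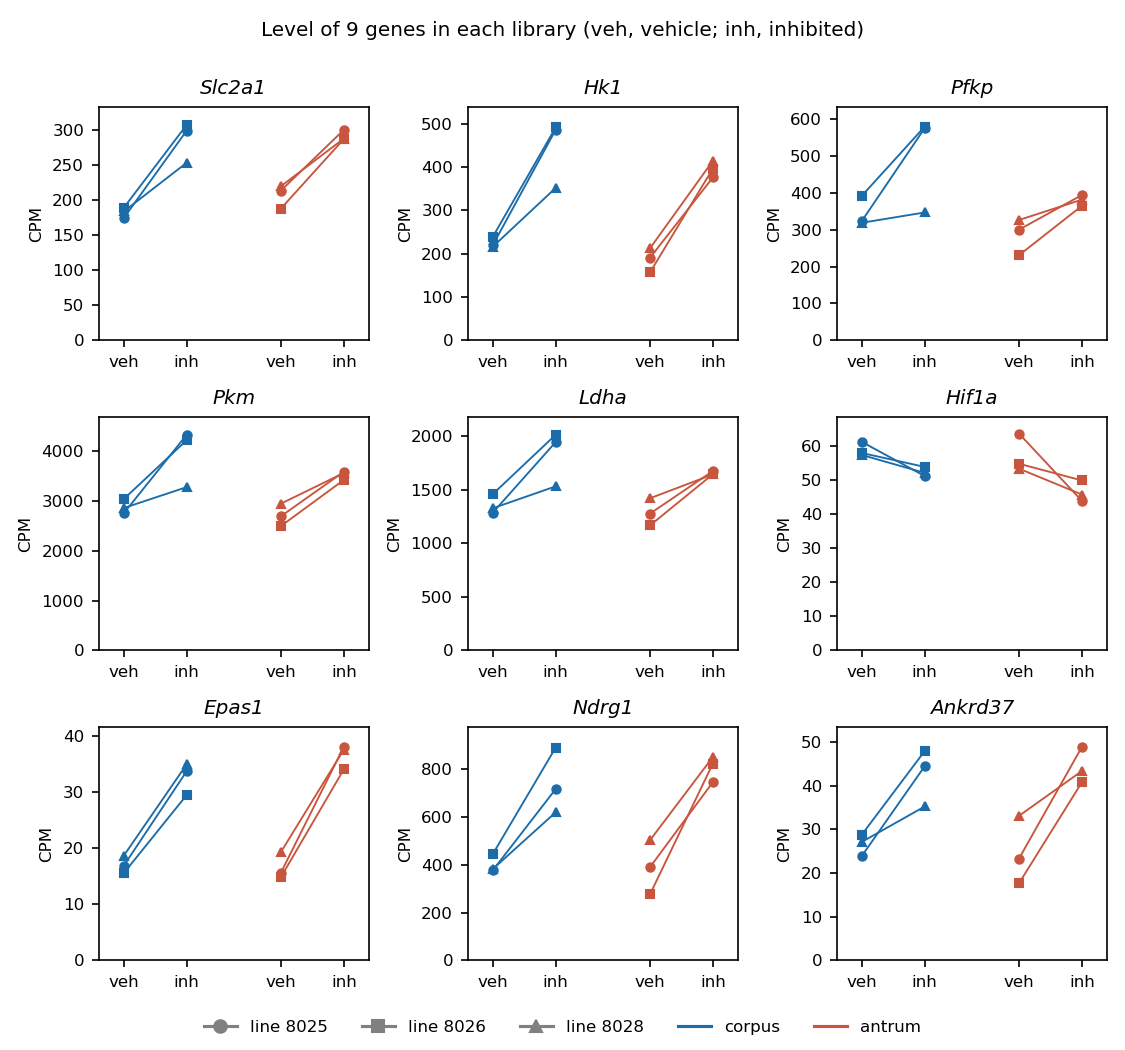
CPM of the 9 genes that passed the test in at least 1 region, by library, with lines joining vehicle (veh) to inhibited (inh) organoids of the same line in corpus (blue) and antrum (red). Vehicle and inhibited libraries separate fully in both regions for all but Pfkp, which overlaps in corpus, and Hif1a lies lower with inhibition. The triangle of inhibited corpus line 8028 sits lowest of its group for all but Hif1a and Epas1.

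The 3 switches on glycolytic flux did not pass in either region. Pfkfb3 and Pfkfb4 make fructose 2,6-bisphosphate, the main activator of phosphofructokinase. The log2 changes in corpus and antrum were 0.22 ± 0.151 and 0.30 ± 0.152 for Pfkfb3, and 0.46 ± 0.199 and 0.54 ± 0.198 for Pfkfb4 (adjusted p 0.298 and 0.16 for Pfkfb3, 0.104 and 0.0624 for Pfkfb4). Both passed in antrum with the line as a block (0.031 for Pfkfb3, 0.0338 for Pfkfb4). Pfkfb4 also passed in antrum without vehicle line 8028 (0.0176), and Pfkfb3 in corpus without inhibited line 8028 (0.036) and in antrum without vehicle lines 8025 and 8028 (0.0319). Pfkfb4 was the lowest of the 33 genes in every group, at 0.736 to 1.29 CPM per kb. Pdk1, a kinase that shuts off pyruvate dehydrogenase and a HIF target, had changes of 0.02 ± 0.192 and -0.04 ± 0.192.

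Among the HIF genes, the 2 alpha subunits had changes of opposite sign. Epas1 (ENSMUSG00000024140; chromosome 17 from 86753700 to 86833410), which encodes HIF-2 alpha, stood at 16.9, 15.6 and 18.7 CPM in vehicle corpus lines 8025, 8026 and 8028 and at 33.8, 29.5 and 35.0 CPM in inhibited ones. In antrum it stood at 15.7, 14.9 and 19.4 CPM with vehicle and 38.2, 34.1 and 37.7 CPM with inhibition. No inhibited library came near a vehicle library. The log2 rise of Epas1 was 0.94 ± 0.113 for corpus and 1.14 ± 0.114 for antrum (adjusted p 0.000106 and 3e-05), or 1.92-fold and 2.20-fold. Of the 33 genes, only Epas1 and Slc16a1 had inhibited corpus line 8028 as the highest of its group.

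Hif1a (ENSMUSG00000021109; chromosome 12 from 73901375 to 73947530), which encodes HIF-1 alpha, stood at 61.2, 57.9 and 57.4 CPM in vehicle corpus lines 8025, 8026 and 8028 and at 51.2, 53.9 and 52.1 CPM in inhibited ones. Antral levels were 63.6, 54.8 and 53.3 CPM with vehicle and 43.9, 49.9 and 45.7 CPM with inhibition. All inhibited libraries were below all vehicle libraries of their region. Hif1a fell in antrum by 0.30 ± 0.077 on the log2 scale (adjusted p 0.0125), and its corpus change of -0.17 ± 0.076 did not pass (0.118). Hif1a no longer passed in antrum without vehicle 8025 (adjusted p 0.055), inhibited 8025 (0.0582), the pair of them (0.173), or the vehicle libraries of lines 8025 and 8028, which carried the most rRNA-like counts (0.111). Under total-count scaling Hif1a also fell in corpus (0.00974). The prolyl hydroxylases Egln1 (PHD2, the main one) and Egln3 (PHD3, itself a HIF target) did not pass. Their log2 changes in corpus and antrum were 0.22 ± 0.147 and -0.08 ± 0.147 for Egln1, and 0.25 ± 0.232 and 0.32 ± 0.232 for Egln3. Egln1 passed in corpus without inhibited line 8028 (0.40, adjusted p 0.0132) or the pair of that line (0.0466), and Egln3 in antrum without vehicle lines 8025 and 8028 (0.92, 0.0283).

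As a share of the 2 alpha subunits, counted per kilobase of exon, Epas1 made up 23.4% ± 1.89 in vehicle and 39.7% ± 2.68 in inhibited corpus organoids (SD, n = 3). In antrum its share was 23.5% ± 3.69 and 45.4% ± 3.09. Vehicle shares ran from 20.6% to 27.7% over both regions and inhibited shares from 36.6% to 47.8%. Hk1 likewise made up 42.4% ± 2.40 of Hk1 and Hk2 together in vehicle corpus and 51.8% ± 3.04 in inhibited corpus, and 43.7% ± 1.26 and 56.0% ± 2.60 in antrum. These shares rest on the same counts as the changes above and were not tested. Of Pfkl, Pfkm and Pfkp, Pfkl made up 58.5% ± 0.573 in vehicle and 56.6% ± 3.00 in inhibited corpus, and 64.5% ± 3.29 and 59.95% ± 1.07 in antrum.

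Of the 9 other hypoxia targets, Ndrg1 and Ankrd37 rose in both regions. Ndrg1 (ENSMUSG00000005125; chromosome 15 from 66929318 to 66969640), induced by hypoxia and by differentiation in many epithelia, held 377, 446 and 383 CPM in vehicle corpus lines 8025, 8026 and 8028 and 718, 892 and 621 CPM in inhibited ones. Antral levels were 391, 277 and 503 CPM with vehicle and 747, 825 and 852 CPM with inhibition. The groups did not overlap. Ndrg1 rose by 0.89 ± 0.190 and 1.05 ± 0.190 (adjusted p 0.00445 and 0.0017), or 1.85-fold and 2.07-fold.

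Ankrd37 (ENSMUSG00000050914; chromosome 8 from 45996902 to 46005707), an ankyrin repeat gene known as a HIF-1 target, held 23.9, 28.8 and 27.1 CPM in vehicle corpus lines 8025, 8026 and 8028 and 44.5, 47.9 and 35.2 CPM in inhibited ones. In antrum it held 23.3, 17.7 and 33.1 CPM with vehicle and 48.9, 40.8 and 43.4 CPM with inhibition. These groups did not overlap either. Ankrd37 rose by 0.68 ± 0.193 and 0.85 ± 0.195 (adjusted p 0.0206 and 0.00712). In corpus Ankrd37 no longer passed without vehicle line 8025 (adjusted p 0.067), inhibited line 8026 (0.0727), or the pair of line 8025 (0.143) or 8026 (0.118), nor in antrum without the pair of line 8025 (0.0834). Its exons share 349 bases with Lrp2bp and 57 with Ufsp2 on the other strand.

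The remaining 7 targets did not pass in either region. Vegfa, the vascular growth factor, held 285, 275 and 236 CPM in vehicle corpus lines 8025, 8026 and 8028 and 398, 407 and 209 CPM in inhibited ones. In antrum Vegfa held 277, 207 and 291 CPM with vehicle and 302, 253 and 298 CPM with inhibition, and the groups overlapped in both regions. Its log2 changes were 0.35 (95% interval -0.15 to 0.85) and 0.14 (-0.36 to 0.64), and without inhibited corpus line 8028 the corpus change of Vegfa was 0.63 (adjusted p 0.00302). Car9, the carbonic anhydrase used as a marker of hypoxia, held 355, 364 and 285 CPM in vehicle corpus lines 8025, 8026 and 8028 and 520.1, 486 and 282 CPM in inhibited ones. In antrum it held 214, 136 and 211 CPM with vehicle and 290.5, 234 and 203 CPM with inhibition. Its groups overlapped as well, and its log2 changes were 0.36 (-0.19 to 0.90) and 0.38 (-0.17 to 0.92). The corpus change of Car9 passed without inhibited line 8028 (0.0287).

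Adm, which encodes the peptide adrenomedullin, had negative changes in both regions, -0.49 ± 0.329 and -0.33 ± 0.332 on the log2 scale. The antral sign of Adm rested on vehicle line 8028, without which the change was 0.12 (0.69 without vehicle lines 8025 and 8028). Bnip3 and Bnip3l, receptors for the removal of mitochondria, had changes of 0.23 ± 0.353 and 0.27 ± 0.355 (Bnip3) and of 0.20 ± 0.183 and 0.26 ± 0.184 (Bnip3l). P4ha1 and P4ha2, collagen prolyl hydroxylases, had changes from -0.03 for P4ha2 in corpus to 0.37 for P4ha1 in antrum. The intervals of Bnip3 ran from -0.59 to 1.04 and from -0.55 to 1.08, which is wide on both sides of 0.

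The 33 genes varied together between libraries of 1 group. In inhibited corpus organoids, line 8028 was the lowest of its group for 29 of the 33 genes, against 42.1% of all tested genes, with a median deviation of -0.40 from the group mean (log2 CPM). In antral vehicle organoids, line 8026 was the lowest for 30 (39.2% of all tested genes), with a median deviation of -0.29, and line 8028 the highest for 28 (36.7%). Line 8028 of vehicle corpus was the lowest for 23 (40.6%) and line 8026 of inhibited antrum for 24 (34.6%). The exceptions in inhibited corpus were Slc16a1, Hif1a, Epas1 and Pfkfb4. The within-group SD of the 33 genes had a median of 0.264 (log2), against 0.185 over all tested genes. It was highest for Bnip3 (0.523), Adm (0.486) and P4ha1 (0.455) and lowest for Hif1a (0.089) and Slc2a1 (0.102).

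In each of the 4 groups, the library in which most of the 33 genes were lowest also had the highest summed level of 5 proliferation markers (Mki67, Top2a, Cenpf, Mcm7 and E2f1, 5 of 5 tested). That sum was 880.3 CPM in inhibited corpus line 8028, against 355 and 497 in lines 8025 and 8026. It was 1235 CPM in antral vehicle line 8026 against 1063 and 1019.9, 1114 CPM in vehicle corpus line 8028 against 870.2 and 932, and 847 CPM in inhibited antral line 8026 against 639.6 and 672. Inhibited corpus line 8028 also kept the most Axin2, 18.7 CPM against 3.71 and 5.39, and held 27543 CPM of rRNA-like genes against 12196.0 and 15506. The part of proliferation, of residual Axin2 or of rRNA-like counts in the levels of the 33 genes was not tested.

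**Figure D3:**
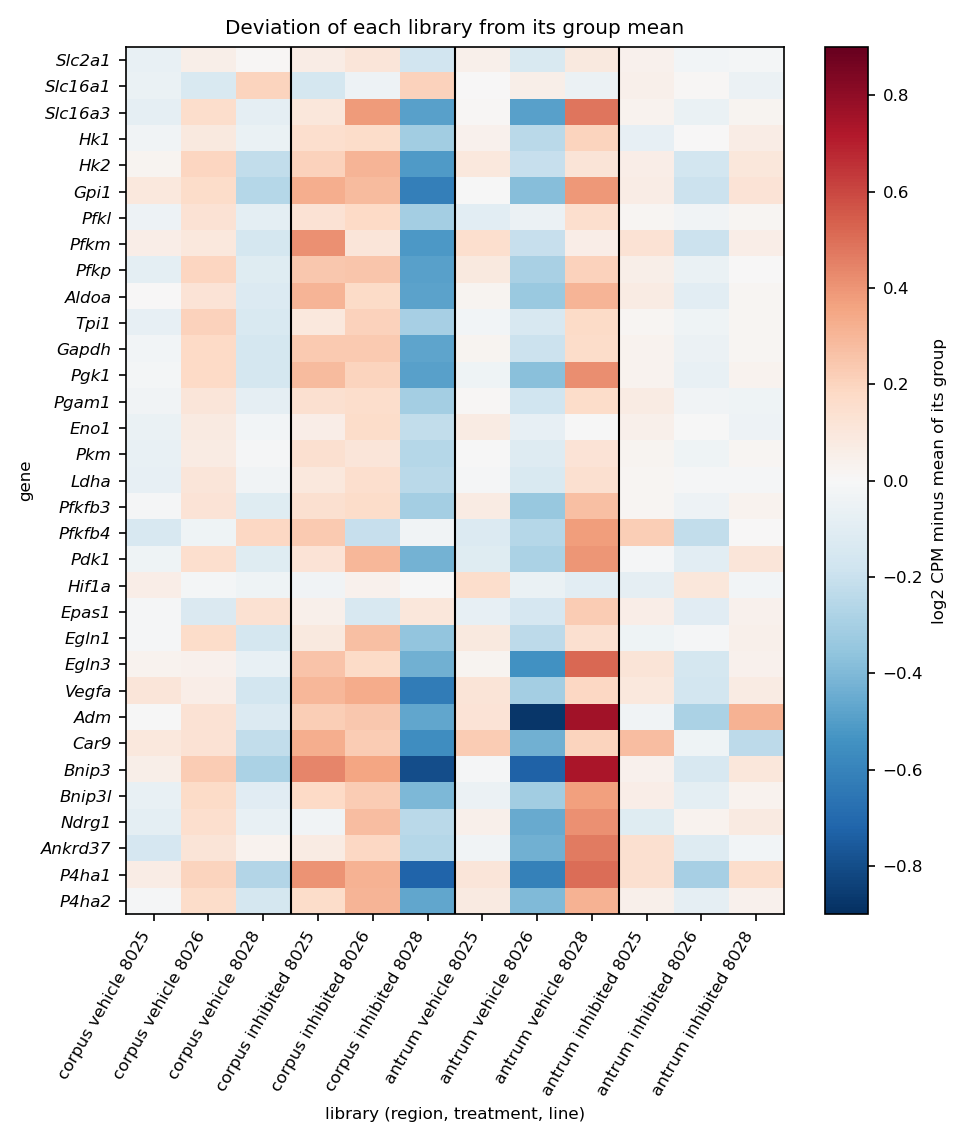
Deviation of each library (columns) from the mean of its group for the 33 genes (rows), in log2 CPM, red above and blue below the group mean. The columns of inhibited corpus line 8028 and antral vehicle line 8026 are blue for nearly all genes, and that of antral vehicle line 8028 is red for most.

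Seen line by line, the median change of the 33 genes, on the scale log2(CPM + 1), was 0.48, 0.30 and -0.02 in corpus lines 8025, 8026 and 8028. In antrum it was 0.39, 0.50 and 0.05 in the lines of the same numbers. Line 8028 had the lowest change of its region for 31 of the 33 genes in corpus and 28 in antrum, against 33.2% and 39.2% of all tested genes. In corpus that line's low median came with low inhibited levels, and in antrum with high vehicle levels. In corpus 16 genes were higher in all 3 lines and 2 lower (28.6% and 35.0% of all tested genes), and in antrum 20 and 1 (31.7% and 36.8%). In all 6 lines 13 were higher (23.1% of all tested genes). Inhibited and vehicle libraries did not overlap, with inhibited above, for 8 genes in corpus (19.7% of all tested genes) and 12 in antrum (24.1%). Inhibited libraries lay below for 2 in corpus (21.1%) and 1 in antrum (24.6%).

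Without the inhibited corpus library of line 8028, 22 of the 33 genes rose in corpus, beside 20.8% of all tested genes, with a median log2 change of 0.515. Without both corpus libraries of that line, 18 rose (17.9%). Without both corpus libraries of line 8025 or of line 8026, 4 rose (11.2% and 8.70%): Slc2a1, Hk1, Epas1 and Ndrg1. These 4 genes passed in both regions under every alternative that was run, with log2 changes of 0.43 to 0.77 for Slc2a1, 0.82 to 1.33 for Hk1, 0.79 to 1.30 for Epas1 and 0.73 to 1.55 for Ndrg1.

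**Figure D4:**
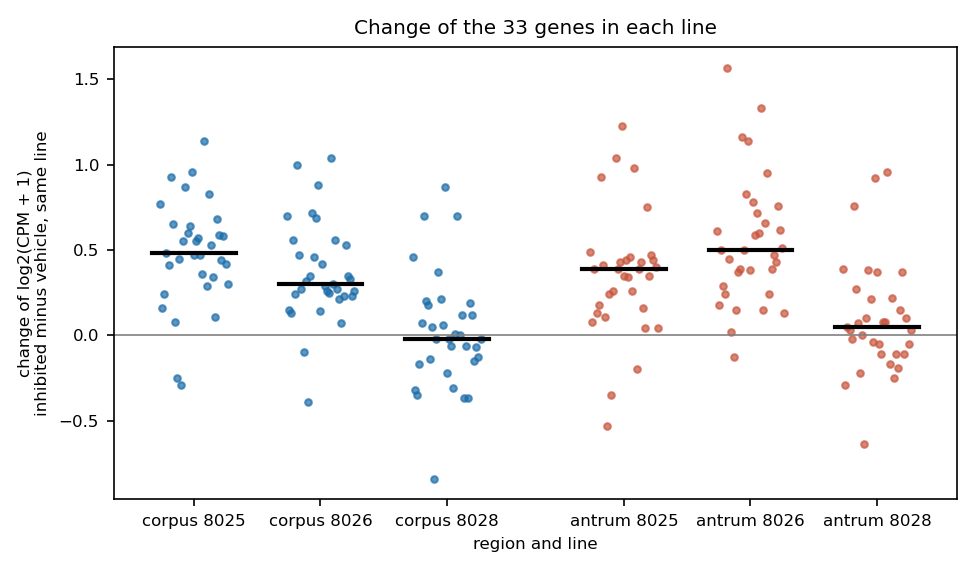
Change of log2(CPM + 1) from vehicle to inhibited organoids of the same line, 1 point for each of the 33 genes, with black bars at the median, in the 3 corpus lines (blue) and the 3 antral lines (red). The bars lie at 0.48 and 0.30 in corpus lines 8025 and 8026 and at 0.39 and 0.50 in the antral ones, but near 0 in line 8028 of both regions.

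Antrum and corpus were compared next. None of the 33 genes passed between the regions in vehicle organoids or in inhibited organoids, and none differed between regions in its response (edgeR), beside 0.198%, 0.0619% and 0.00619% of all tested genes. Of all tested genes 0.0681% were higher and 0.130% lower in antral vehicle organoids, and 0.0495% higher and 0.0124% lower in antral inhibited ones. At an unadjusted p below 0.05 the edgeR counts were 6, 8 and 0. No share of all tested genes was taken for these counts, so they cannot be read as a difference between regions. DESeq2 called 1, 0 and 0, beside 3.08%, 0.922% and 0.0557% of all tested genes. In vehicle organoids 29 of the 33 changes were negative, that is lower in antrum, and 4 positive, against 49.0% positive over all tested genes. The median log2 difference was -0.191, against -0.006 over all tested genes. That median was -0.059 without antral vehicle line 8026, -0.378 without antral vehicle line 8028, and -0.019 without the vehicle libraries numbered 8026 of both regions. In inhibited organoids 27 were negative and 6 positive, against 51.3% positive over all tested genes, with a median of -0.229 against 0.006. This median was -0.134 without corpus line 8026 and -0.414 without corpus line 8028. Vehicle libraries of antrum lay below all those of corpus for 8 genes (12.8% of all tested genes) and above them for 0 (9.68%). With inhibition they lay below for 1 (5.06%) and above for 0 (6.71%). Car9 had the largest difference, -0.84 ± 0.238 in vehicle and -0.82 ± 0.238 in inhibited organoids (edgeR adjusted p 0.159 and 0.349). DESeq2 called Car9 lower in vehicle antrum (adjusted p 0.0247).

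The count in inhibited organoids turned on 1 library. This was inhibited corpus line 8028, which lay among the antral libraries on the second principal component. Without it, 15 of the 33 genes were lower in antrum, beside 4.09% of all tested genes. Among them were Car9 (-1.05, edgeR adjusted p 0.0194), Gapdh (-0.63, 0.0132) and Hk2 (-0.64, 0.02). Without the inhibited libraries numbered 8028 of both regions the count was 3, these same genes, beside 1.26%. The log2 differences between regions in response ran from -0.30 for Egln1 (95% interval -0.78 to 0.18) to 0.23 for Gpi1 (-0.57 to 1.04), and the adjusted p was 1 for all 33.

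Other genes of the same pathways came from lists that were also chosen with earlier results of these data known. Those given by name alone were chosen after their values were seen. The counts of each list stand beside 30.9% of all tested genes that passed in corpus and 29.7% in antrum. Of 18 other genes of the HIF machinery, 4 passed in corpus (2 upward, 2 downward) and 2 in antrum, both upward, with median log2 changes of 0.022 and 0.044. Besides the genes below, Arnt2 fell in corpus. Siah2, a ubiquitin ligase for prolyl hydroxylases, rose in corpus by 0.41 ± 0.085 (edgeR adjusted p 0.00393). Elob and Eloc, the elongin partners of the von Hippel-Lindau protein, had corpus changes of 0.16 ± 0.053 and -0.22 ± 0.065 (adjusted p 0.0391 and 0.0243). Elob also rose in antrum by 0.16 (0.0403), and Os9, which binds HIF-1 alpha, rose there by 0.41 ± 0.117 (0.0204). Siah2 did not pass with total-count scaling (0.129) or without the pair of line 8026 (0.0585). Elob no longer passed in corpus without vehicle 8025 or 8028 or inhibited 8025 or 8026 (adjusted p 0.0581 to 0.0817), nor in antrum without any 1 library but vehicle 8028 (0.0636 to 0.148). With total-count scaling the change of Elob was near 0 in corpus (adjusted p 0.972). Eloc no longer passed without any 1 corpus library but inhibited 8028 (0.0579 to 0.119), and Os9 without antral vehicle 8026 (0.0649) or inhibited 8025 (0.0759) or 8028 (0.0531). These are not all the losses. Over all alternatives, Elob lost its call in 10 of 18 fits for corpus and 12 of 19 for antrum. Eloc lost its corpus call in 9 of 18, and Os9 its antral call in 7 of 19.

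Of 30 other hypoxia targets that could be tested, 11 passed in corpus (7 upward, 4 downward) and 10 in antrum (5 each way), with medians of 0.117 and 0.138. Stc2, Plin2 and Higd1a rose in both regions, and Cxcr4, Ppp1r3c and Zfp395 fell in both. Tfrc fell in antrum. Car12, a carbonic anhydrase like Car9 but induced also by other signals, fell by 1.53 ± 0.299 (corpus) and 1.87 ± 0.307 (antrum; adjusted p 0.00262 and 0.000898). Its level went from 20.8 to 27.8 CPM in vehicle corpus to 4.84 to 10.8 CPM in inhibited corpus. Insig2, a brake on sterol synthesis, rose by 0.90 ± 0.143 and 1.10 ± 0.144 (0.000725 and 0.000199). Selenbp1, a selenium-binding protein of mature epithelia, rose by 1.41 ± 0.417 and 1.24 ± 0.416 (0.0242 and 0.043). Selenbp1 no longer passed when any 1 corpus library but inhibited 8028 was left out (adjusted p 0.0551 to 0.088), or any 1 antral library but vehicle 8028 (0.0528 to 0.123). With the line as a block, Selenbp1 did not pass in corpus (0.0546). Over all alternatives Selenbp1 lost its call in 9 of 18 fits for corpus and 11 of 19 for antrum.

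Of 24 other glycolytic isozymes and glucose transporters, 9 passed in corpus (4 upward, 5 downward) and 8 in antrum (5 upward, 3 downward), with medians of -0.160 and 0.161. Pklr and Slc2a10 rose and Bpgm and Slc2a8 fell in both regions. Slc5a1 and Eno2 fell in corpus. Ldhb, the lactate dehydrogenase subunit that favours pyruvate, fell by 2.23 ± 0.127 and 2.00 ± 0.129 (adjusted p 1.94e-06 and 1.95e-06). Per kilobase, Ldhb made up 4.13% ± 0.497 of Ldha and Ldhb in vehicle corpus and 0.687% ± 0.134 in inhibited corpus, and 2.99% ± 0.208 and 0.597% ± 0.0153 in antrum (SD, n = 3). Slc2a6, a transporter related to the glucose importers and found on internal membranes, rose by 2.21 ± 0.192 and 2.04 ± 0.192 (1.47e-05 and 2.13e-05). Ldhd, which acts on D-lactate, rose by 0.89 ± 0.192 and 0.97 ± 0.193 (0.00467 and 0.00296), and did not pass in corpus without the pair of line 8026 (0.0603).

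Of 16 genes of pyruvate entry into mitochondria and gluconeogenesis, 6 passed in corpus (4 upward, 2 downward) and 7 in antrum (6 upward, 1 downward), with medians of 0.156 and 0.109. Fbp2 and Dld rose in both regions, and Pdha1 fell in corpus. Pdp1, the phosphatase that switches pyruvate dehydrogenase on, rose by 0.99 ± 0.089 and 0.95 ± 0.089 (adjusted p 1.64e-05 and 2.05e-05). Pdk3, a kinase that switches it off, fell by 0.63 ± 0.120 in both regions (0.00206 and 0.00222), and did not pass in antrum without vehicle lines 8025 and 8028 (0.0519). Pdk2, another such kinase, rose in antrum by 0.89 ± 0.293 (0.0406), which no longer passed without vehicle 8025 or 8026 or inhibited 8025 or 8028 (0.0804 to 0.141). Over all alternatives the antral call of Pdk2 was lost in 10 of 19 fits. Pcx, the pyruvate carboxylase, rose by 0.80 ± 0.174 and 0.83 ± 0.175 (0.00507 and 0.00423). It did not pass in corpus without the pair of line 8026 (0.0556) or in antrum without the pair of line 8025 (0.0543).

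Of 19 genes of the pentose phosphate path and of glycogen, 7 passed in corpus (6 upward, 1 downward) and 8 in antrum (7 upward, 1 downward), with medians of 0.244 and 0.137. The gene that fell was Gyg in both regions. G6pdx and Pgd, the dehydrogenases that make NADPH, rose in both regions: G6pdx by 0.39 ± 0.065 and 0.35 ± 0.065 (adjusted p 0.000862 and 0.00196) and Pgd by 0.75 ± 0.062 and 0.68 ± 0.062 (9.75e-06 and 1.69e-05). Under total-count scaling G6pdx did not pass in corpus (0.053). Pygb, a glycogen phosphorylase, rose by 0.85 ± 0.094 and 0.90 ± 0.095 (6.31e-05 and 4.2e-05). Ugp2, which makes the sugar nucleotide used for glycogen and glycans, rose in antrum by 0.64 ± 0.155 (0.00935), but not without the pair of line 8025 (0.0564) or 8028 (0.0526). In corpus Ugp2 stood at 0.29 ± 0.154 (0.185). Blocking on the line it passed there (0.00354), as it did without inhibited line 8028 (0.011).

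**Figure D5:**
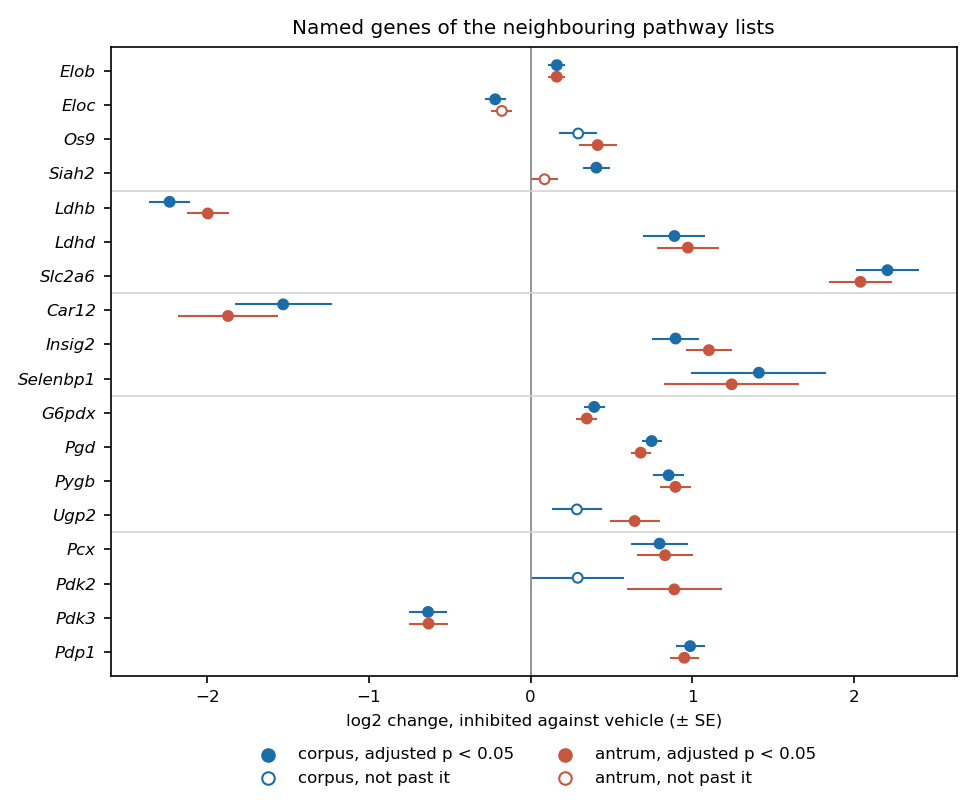
Log2 change (x axis; bars, SE) of the genes given with values of the 5 neighbouring lists, separated by grey lines: from the top, HIF machinery, other isozymes and glucose transporters, other hypoxia targets, pentose phosphate and glycogen, and pyruvate entry. Ldhb and Car12 lie farthest left and Slc2a6 farthest right in both regions.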

How the data were processed

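PolyA RNA of 12 organoid cultures was sequenced by the authors. The deposited table holds estimated counts per gene (RSEM expected counts, all whole numbers). Per the submitters' processing notes, the tools were cutadapt 2.3, FastQC 0.11.8, STAR 2.7.8a and RSEM 1.3.3, with GRCm38; no role or setting is recorded there. Of 55426 rows, 5 transgene rows (2 counts in all) were left out.

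The counts were tested in R 4.3.3 with edgeR 4.0.16 (TMM scaling, robust quasi-likelihood, 4 group means, 8 residual degrees of freedom, Benjamini-Hochberg over 16152 genes past the default low-count filter). A gene was called, or passed, at an adjusted p below 0.05, two-sided. CPM use TMM-scaled totals of tested genes, and levels per kb the union of exons. A count of 0 allows up to 3 counts, 0.0889 to 0.177 CPM. Alternatives were other scalings and filters, DESeq2 1.42.0, limma 3.58.1 (voom), the line as a block, 6 libraries only, and leaving out libraries or lines. The edgeR fit was checked on simulated data, drawn as independent libraries without paired lines, where small changes were recovered only in part. Libraries of a group differed by more than counting error (chi-square over its degrees of freedom at least 10.4).

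The treatment protocol gives both treatments to the same lines, which pairs the libraries within a region. Residuals of same-line pairs correlated at 0.142 to 0.498 (6 pairs), against -0.372 to 0.078 for different lines of a region. Pairs that shared neither number nor region ran from -0.251 to 0.239, a range that holds the antral same-line values (0.142 to 0.213). Same-numbered lines of the 2 regions did not stand apart from it (-0.151 to 0.225).

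The 33 genes and the other lists were chosen with earlier results of these data known, so their counts are descriptions. Values in every library are given for genes called in any comparison and for Hif1a, Epas1, Vegfa, Slc2a1, Ldha, Pgk1, Car9, Gapdh and Pkm. Of each other list, up to 3 called genes per region are named, by size of change, where the 12 libraries averaged 5 CPM or more and the 3 lines moved 1 way. Some further genes are named without values, chosen after these were seen, and a few genes of these lists, counted in their totals, are not reported here.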

Additional observations from a re-analysis of the deposited data

How the results depend on the processing

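With the line as a replicate block, which the pairing of lines supports, 13 of the 33 genes were called in corpus and 14 in antrum, against 8 and 8 without it. With the block 43.5% and 40.8% of all tested genes were called, against 30.9% and 29.7%. All 8 calls of each region were kept, and among the genes named from the other lists the block ended the corpus call of Selenbp1 and no other that is reported here. The number of the 33 called between regions stayed at 0 with the number as a block. Leaving out 1 library or a line gave 4 to 22 calls in corpus, 4 to 9 in antrum, 0 to 15 between regions in inhibited organoids, and 0 between regions in vehicle organoids and for the difference in response. The highest corpus and inhibited-region counts came without inhibited corpus line 8028, the lowest corpus counts without line 8025 or 8026, and the lowest antral count without line 8025. The called share of all tested genes moved too. For corpus it was smallest without line 8026 (15.9%) and largest without inhibited line 8028 (42.6%). For antrum the extremes were 16.7% (without line 8025) and 26.0% (without vehicle line 8028). Between regions in inhibited organoids it reached 11.7% without inhibited corpus line 8028. The cause of these shifts was not tested. DESeq2 called 1 gene of the 33, Car9, between regions in vehicle organoids, beside 3.08% of all tested genes. The other scalings and filters, limma-voom and the fits of 6 libraries kept every count of calls within 1.5 times of 8, or at 0. No called change of the 33 genes or of the other named genes turned its direction under any alternative. With 3 libraries a group, the SE of most of the 33 genes was 0.10 to 0.35 (log2), which limits the changes that could be called. Fits that leave 1 library in a group assume that it varies like the other groups.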
